A study of Homo sapiens with 6 samples.

Results

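The mitochondrially encoded complex I mRNAs are the products of 7 genes that the mitochondrial genome contributes to the first enzyme of the respiratory chain: MT-ND1, MT-ND2, MT-ND3, MT-ND4, MT-ND4L, MT-ND5 and MT-ND6. They were taken from a table of 60676 genes as the rows whose identifiers carry an MT-ND symbol, a rule that uses no measured value. The libraries came from SK-N-BE cells, an established human neuroblastoma line, at day 1.5 of differentiation with 10 µM retinoic acid. RNA retrieved from native extract with biotinylated probes to CyCoNP (the long noncoding RNA LINC02381; CyCoNP PD) was compared with RNA retrieved with probes to the bacterial lacZ sequence (LacZ PD), which has no counterpart in these cells, and with the starting extract (input). Each group had 2 libraries of Nanopore cDNA reads, 6 in all. All groups shared the same line, day and retinoic acid dose, so no untreated cells entered any comparison. More PCR reactions were pooled for the pull-downs than for input, and dextran sulfate was added to the pull-downs alone. These steps cannot be told apart from the pull-down itself in any comparison with input.

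Complex I takes electrons from NADH, passes them to ubiquinone and pumps protons across the inner mitochondrial membrane. All of its mitochondrially encoded subunits sit in the membrane arm, where MT-ND1 forms much of the junction with the ubiquinone-binding site, MT-ND2, MT-ND4 and MT-ND5 are the antiporter-like subunits, and MT-ND3, MT-ND4L and MT-ND6 are small hydrophobic subunits between them. The mRNAs are cut out of long transcripts of both mitochondrial strands, largely at the tRNAs that separate the genes, and most of them receive a poly(A) tail inside the organelle. They are translated by mitochondrial ribosomes, whereas the remaining complex I subunits are made in the cytosol and imported.

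The 3′ ends of the annotated genes are shown because they identify the members and because polyadenylation completes several of their stop codons. The last 30 bases of each gene are given 5′ to 3′ on its own strand from the GRCh38 mitochondrial sequence, with the encoded bases of the last codon in capitals. A gene end need not be an mRNA end: MT-ND4L is made on a single mRNA with MT-ND4, so its bases lie inside that mRNA.
MT-ND1: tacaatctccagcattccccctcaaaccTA
MT-ND2: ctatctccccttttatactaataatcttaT
MT-ND3: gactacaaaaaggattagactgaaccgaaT
MT-ND4: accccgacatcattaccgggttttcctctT
MT-ND4L: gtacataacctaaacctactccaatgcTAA
MT-ND5: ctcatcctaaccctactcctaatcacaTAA
MT-ND6: attgtaattgagattgctcgggggaatAGG
MT-ND1 ends in 2 bases of a codon, and MT-ND2, MT-ND3 and MT-ND4 end in a single T. MT-ND4L, MT-ND5 and MT-ND6 carry a full codon.

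MT-ND1 (chrM:3307-4262), MT-ND2 (chrM:4470-5511), MT-ND3 (chrM:10059-10404), MT-ND4L (chrM:10470-10766), MT-ND4 (chrM:10760-12137) and MT-ND5 (chrM:12337-14148) lie on the plus strand of GRCh38, and MT-ND6 (chrM:14149-14673) on the minus strand. MT-ND4L and MT-ND4 share 7 bases and are made as a single bicistronic mRNA, so reads that span both genes could be assigned to either. MT-ND5 and MT-ND6 abut on opposite strands, and whether the counting used strand is not given in the sources used here. On neighbours alone, their counts are therefore less certain than those of MT-ND1, MT-ND2 and MT-ND3, which have tRNA genes as neighbours. MT-ND1 and MT-ND2 shared more of their counts with pseudogenes in input, as set out below.

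The match between the members and the CyCoNP probes was read from the sequences as a description, and its part in the recovery was not tested. MT-ND1 held at most 9 consecutive bases complementary to any of the 22 CyCoNP probes, and MT-ND2 and MT-ND5 held at most 10. The other members held 8 or 9, and among the other mitochondrial mRNAs MT-CO3 held 11. The probe and the site are shown for MT-ND1 and MT-ND5, whose values the results turn on, with the complementary bases in capitals.
CyCoNP probe 18: tggccttggTGTGATAAGaa
MT-ND1 site, chrM:3791-3815: tctccaccCTTATCACAacacaaga
CyCoNP probe 9: gATCCTGCGAAgcaagtcag
MT-ND5 site, chrM:13715-13740: gaagcctaTTCGCAGGATttctcatt
Across the 10454 protein-coding transcripts compared in the same way, 94.2% held a stretch of at least 9 bases and 64.3% one of at least 10. The longest stretch complementary to any of the 5 LacZ probes was 8 bases in MT-ND1 and 7 in MT-ND5.

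The libraries differed in depth, from 18870 counts in LacZ PD 1 to 1512148 in CyCoNP PD 1. A count of 0 allowed between 1.98 and 159.0 CPM (deposited counts scaled to the library total), taken as the level of 3 counts. CyCoNP itself had 27.9 and 49.2 CPM in input, 7729 and 6811 CPM in CyCoNP PD and 53.0 and 143 CPM in LacZ PD. CyCoNP PD thus held the most, as its label gives. The 53.0 CPM of LacZ PD 1 is 1 count, so no order of LacZ PD and input is read from it. Sympathoadrenal markers such as PHOX2A, DBH and MYCN were present in every library, with 10 to 12 of 12 markers detected and a summed level of 2793 to 4078 CPM. Skeletal muscle markers were present in the replicate 1 library of every group. Of 18 such markers, replicate 1 libraries held 12 to 17 at a summed 1683 to 3286 CPM, and replicate 2 libraries held 4 or 5 at 20.2 to 50.0 CPM. MYOG, a myogenic transcription factor, had 666, 1284 and 22 counts in input 1, CyCoNP PD 1 and LacZ PD 1, and 1, 0 and 0 counts in input 2, CyCoNP PD 2 and LacZ PD 2. The fibroblast collagen genes COL1A1, COL1A2 and COL3A1 followed them: their counts were 192, 131 and 30 in the first input but 10, 2 and 0 in the second. The sources used here do not account for this RNA, and its part in the MT-ND values was not tested. Values within replicate 2 are given for the members. In these bulk libraries, fewer cells or organelles and less RNA in each cannot be told apart.

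MT-ND1, the subunit at the ubiquinone junction, was the member that both pull-downs held at a higher level than input. It had 809 and 314 CPM in input, 32339 and 6761 CPM in CyCoNP PD, and 5988 and 3783 CPM in LacZ PD, where the first value of each pair is replicate 1. The 3 groups did not overlap: both CyCoNP PD libraries lay above both LacZ PD libraries, which lay above both inputs. The counts behind these levels were 581, 249, 48901, 3481, 113 and 530 in the same order, and the 95% Wilson interval of the shallowest library, LacZ PD 1, was 4984 to 7194 CPM. CyCoNP PD 2 lies inside that interval, so its place above LacZ PD 1 is not settled by counting. Intervals of this kind cover counting error only.

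Within replicate numbers, MT-ND1 was 40.0-fold higher in CyCoNP PD than in input in replicate 1 and 21.5-fold higher in replicate 2. It was 7.40-fold and 12.0-fold higher in LacZ PD than in input. The difference between the pull-downs was 5.40-fold in replicate 1 and 1.79-fold in replicate 2. These folds are ratios of CPM scaled to the library total, and with TMM scaling of the replicate 1 libraries the log2 difference between the pull-downs was 3.45, compared with 2.06 for LacZ PD against input. The level in LacZ PD, a measure of what the procedure retrieves without a target, was thus between input and CyCoNP PD in both replicates.

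In edgeR's quasi-likelihood fit over all 6 libraries, the log2 fold change of MT-ND1 was 5.25 ± 1.02 (SE) in CyCoNP PD against input, with a Benjamini-Hochberg adjusted p of 0.0661 that missed the 0.05 threshold. Once edgeR was given the replicate block it was called higher (5.06 ± 0.86, adjusted p = 1.18e-06), and DESeq2 without the block called it too (5.12 ± 0.81, adjusted p = 2.04e-07). Against input in LacZ PD, the edgeR log2 fold change was 2.58 ± 0.91 (adjusted p = 0.607). It was called higher by edgeR with the replicate block (2.83 ± 0.78, adjusted p = 0.0385) and, at the edge of the threshold, in DESeq2 (2.63 ± 0.82, adjusted p = 0.0495). CyCoNP PD against LacZ PD gave 2.67 ± 0.91 in edgeR (adjusted p = 0.749), 2.23 ± 0.79 in edgeR with the block (adjusted p = 0.275) and 2.49 ± 0.81 in DESeq2 (adjusted p = 0.128), none of which passed. DESeq2 with the replicate block called it higher in CyCoNP PD (2.06 ± 0.61, adjusted p = 0.0403).

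The scale of these fits matters most for LacZ PD. Over all 12565 genes tested, the median log2 fold change was -0.01 in CyCoNP PD against input, -0.68 in LacZ PD against input and 0.64 between the pull-downs, and with library size alone the last 2 medians were -0.34 and 0.22. Relative to these medians, MT-ND1 stood at 5.26, 3.26 and 2.03 with TMM scaling, and at 5.20, 3.46 and 1.79 with library size alone. Its direction was the same under every scaling tried.

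**Figure D1:**
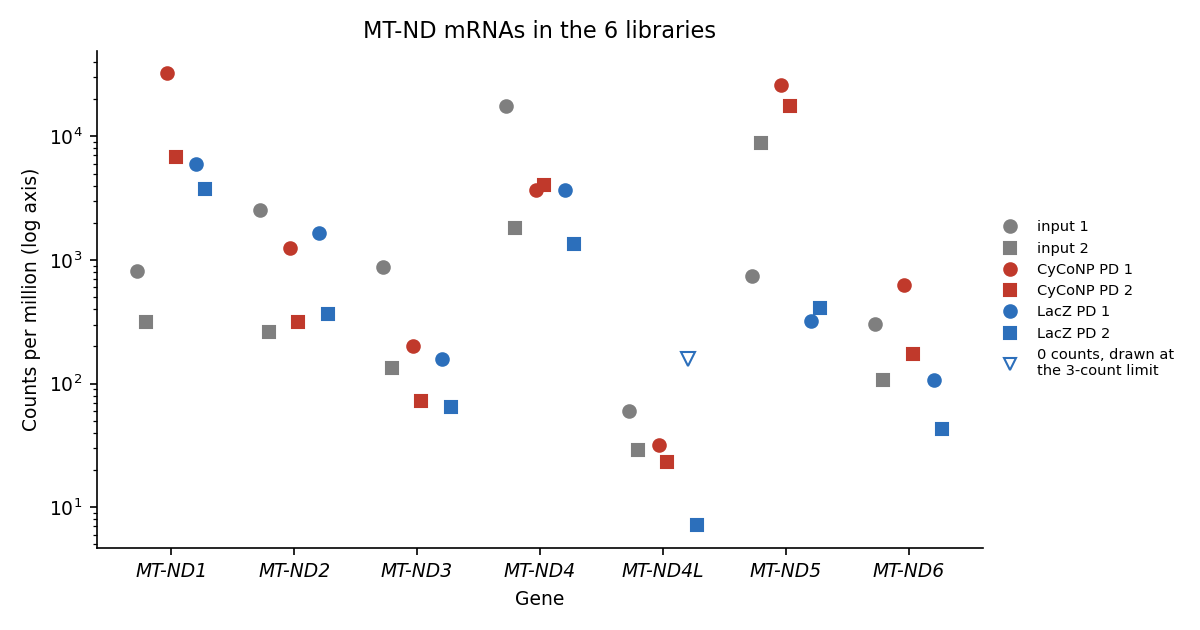
Level of each MT-ND mRNA in CPM on a log axis, with circles for replicate 1, squares for replicate 2 and an open triangle for the 0 counts of MT-ND4L in LacZ PD 1, drawn at the level that 3 counts would give (159.0 CPM). MT-ND1 is lowest in the inputs (809 and 314 CPM), whereas MT-ND5 is lowest in LacZ PD (318 and 407 CPM).

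A ratio within a library needs no scaling between libraries, and it set MT-ND1 apart from the other 6 members together. With 0.5 added to both counts, the other members had 27.3 and 35.3 counts in input for each MT-ND1 count. In CyCoNP PD they had 0.987 and 3.28, and in LacZ PD 0.982 and 0.593. MT-ND1 was therefore a small part of the MT-ND counts in both inputs and a large part in all 4 pull-down libraries.

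On the log2 scale, the ratio of MT-ND1 to the other members, from the same counts with 0.5 added, was -4.77 and -5.14 in input, 0.02 and -1.72 in CyCoNP PD, compared with 0.03 and 0.75 in LacZ PD. All 4 pull-down libraries lay above both inputs. The mean was -0.23 ± 1.05 (SD, n = 4) in the pull-downs and -4.96 ± 0.26 (SD, n = 2) in input, a difference of 4.73 (exact two-sided permutation test, p = 0.0667, the smallest that 4 against 2 libraries can give). Taken separately, CyCoNP PD stood 4.11 and LacZ PD 5.35 above input, and CyCoNP PD stood 1.24 below LacZ PD (difference -1.24). The exact permutation p of each was 0.333, the smallest possible with 2 against 2, and after Benjamini-Hochberg adjustment over the 12 permutation tests made, all 4 ratio tests had 0.571. MT-ND1 itself was higher in CyCoNP PD (32339 and 6761 CPM) than in LacZ PD (5988 and 3783 CPM). The lower ratio in CyCoNP PD than in LacZ PD thus rests on the counts of the other members. In the replicate 2 libraries alone, the difference between pull-downs and input was 4.66.

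MT-ND5, the antiporter-like subunit at the far end of the membrane arm, separated the pull-downs from each other. It had 747 and 8797 CPM in input, 26158 and 17573 CPM in CyCoNP PD, and 318 and 407 CPM in LacZ PD. Both CyCoNP PD libraries lay above both inputs, as did 15.9% of genes, and both LacZ PD libraries below them, as did 33.7%. LacZ PD 1 held 6 MT-ND5 counts (95% Wilson interval 146 to 694 CPM), and its ratio to input 1 was 0.426, with a 95% counting interval of 0.190 to 0.952 that lies just below equality. The inputs themselves differed 11.8-fold, which is more than the 1.49-fold between the CyCoNP PD libraries or the 1.28-fold between the LacZ PD libraries.

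CyCoNP PD exceeded LacZ PD in MT-ND5 by 82.3-fold in replicate 1 and by 43.2-fold in replicate 2. Against input, the fold in CyCoNP PD depended on the replicate, at 35.0 in replicate 1 and 2.0 in replicate 2. LacZ PD was 2.35-fold and 21.6-fold lower than input. The 95% counting intervals of the fold between the pull-downs overlapped between replicates (37 to 183 and 33.3 to 56.0), and those of the folds against input did not.

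The edgeR log2 fold change of MT-ND5 between the pull-downs was 6.38 ± 1.25 (adjusted p = 0.112), which did not pass. Blocked by replicate, edgeR called it higher in CyCoNP PD (6.89 ± 0.99, adjusted p = 1.07e-08), as DESeq2 did without the block (6.23 ± 1.05, adjusted p = 1.82e-06). Against input, MT-ND5 had 2.19 ± 1.02 in CyCoNP PD in edgeR (adjusted p = 0.925) and was called higher with the replicate block (3.03 ± 0.89, adjusted p = 0.0332) but not in DESeq2 without the block (2.15 ± 1.02, adjusted p = 0.619). LacZ PD against input gave -4.19 ± 1.14 in edgeR (adjusted p = 0.496), and MT-ND5 was called lower with the replicate block (-3.86 ± 0.91, adjusted p = 0.00687) and in DESeq2 (-4.08 ± 1.05, adjusted p = 0.0125).

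MT-ND4 and MT-ND2, the other antiporter-like subunits, differed more between the inputs than between the groups. MT-ND4 had 17626 and 1799 CPM in input, 3649 and 4042 CPM in CyCoNP PD, and 3657 and 1356 CPM in LacZ PD. All pull-down libraries lay below input 1, and 3 of the 4 lay above input 2. MT-ND2 had 2513 and 260 CPM in input, 1256 and 317 CPM in CyCoNP PD, and 1643 and 364 CPM in LacZ PD, and its replicate 1 libraries lay above its replicate 2 libraries in every group. MTND2P28, a nuclear copy of MT-ND2, followed the same split in part, as set out with the pseudogenes.

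Neither gene was called in any comparison. The edgeR log2 fold changes of MT-ND4 were -1.20 ± 0.88 in CyCoNP PD against input (adjusted p = 1.000), -2.56 ± 0.93 in LacZ PD against input (adjusted p = 0.619) and 1.36 ± 0.90 between the pull-downs (adjusted p = 0.871). In CyCoNP PD, MT-ND4 was 4.83-fold lower than input in replicate 1 and 2.25-fold higher in replicate 2, so its direction against input rested on the replicate. Those of MT-ND2 were -0.65 ± 0.92, -1.19 ± 0.96 and 0.53 ± 0.95 in the same order, all smaller than or close to their standard errors, and in replicate 2 alone MT-ND2 was 1.22-fold higher in CyCoNP PD and 1.40-fold higher in LacZ PD than in input.

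The small hydrophobic subunits MT-ND3, MT-ND4L and MT-ND6 had fewer counts than MT-ND1, MT-ND2, MT-ND4 and MT-ND5 in all libraries but input 1, where MT-ND3 had more than MT-ND1 and MT-ND5. MT-ND3 had 876 and 134 CPM in input, 200 and 71.9 CPM in CyCoNP PD, and 159 and 64.2 CPM in LacZ PD, where the counts were 3 and 9. It lay below its own input in both replicates of both pull-downs, by 4.37-fold and 1.86-fold in CyCoNP PD, although the groups overlapped. For LacZ PD 1 with its 3 counts the ratio to input was 0.181 (95% counting interval 0.0584 to 0.564), and for LacZ PD 2 it was 0.480 (0.243 to 0.948). The edgeR log2 fold changes of -1.73 ± 0.80 in CyCoNP PD and -2.86 ± 0.95 in LacZ PD against input did not pass (adjusted p = 0.925 and 0.607).

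MT-ND4L had 59.9 and 29.0 CPM in input and 31.7 and 23.3 CPM in CyCoNP PD. LacZ PD 1 held 0 counts of 18870, which allows up to 159.0 CPM, and LacZ PD 2 held 1 count (7.14 CPM). The depth of LacZ PD was therefore too low to compare MT-ND4L in that group. In CyCoNP PD against input the edgeR log2 fold change was -0.57 ± 0.66 (adjusted p = 1.000).

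MT-ND6, the one member encoded on the minus strand, had 302 and 106 CPM in input, 631 and 175 CPM in CyCoNP PD, and 106 and 42.8 CPM in LacZ PD. CyCoNP PD was above its own input in both replicates, by 2.09-fold and 1.65-fold, and LacZ PD was below it. The ratio of CyCoNP PD to LacZ PD was 5.95 in replicate 1 (95% counting interval 1.49 to 23.8, from 2 counts in LacZ PD 1) and 4.08 in replicate 2 (1.79 to 9.33). Between the pull-downs, edgeR gave 3.29 ± 0.91 (adjusted p = 0.530), and with the replicate block the gene was called higher in CyCoNP PD (2.78 ± 0.72, adjusted p = 0.0173). Reads of MT-ND5, its neighbour on the other strand, moved in the same direction between the pull-downs.

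Over the members together, edgeR without the block called 0 of 7 in each comparison, where it called 0.127% of all genes tested in CyCoNP PD against input, 0% in LacZ PD against input and 0% between the pull-downs. At an unadjusted p under 0.05, 3 of 7 members passed in CyCoNP PD against input (MT-ND1 and MT-ND5 higher, MT-ND3 lower), against 5.40% of all genes. In LacZ PD against input 6 of 7 passed, MT-ND1 higher and MT-ND3, MT-ND4, MT-ND4L, MT-ND5 and MT-ND6 lower, against 7.02% of all genes. MT-ND4L rests here on 0 and 1 counts in LacZ PD, so its place among these is not readable at this depth. Between the pull-downs 3 of 7 passed, MT-ND1, MT-ND5 and MT-ND6, all higher in CyCoNP PD, against 5.20%.

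With the replicate block, edgeR called 2 of 7 members in CyCoNP PD against input (MT-ND1 and MT-ND5; 2.26% of all genes), 2 in LacZ PD against input (MT-ND1 higher and MT-ND5 lower; 0.923%) and 2 between the pull-downs (MT-ND5 and MT-ND6; 0.772%). DESeq2 called 1 in CyCoNP PD against input (MT-ND1; 0.573% of all genes), 2 in LacZ PD against input (MT-ND1 and MT-ND5; 0.430%) and 1 between the pull-downs (MT-ND5; 0.302%). The 7 members had a median log2 fold change of -0.57, -2.56 and 2.49 in edgeR in these comparisons, beside -0.01, -0.68 and 0.64 over all genes. The comparisons with input share the input libraries, so their values are not independent.

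Separation of the groups is common at this sample size. In CyCoNP PD against input, MT-ND1 and MT-ND5 had both libraries above both inputs, as did 15.9% of genes, and no member had both below, as did 20.3%. In LacZ PD against input, MT-ND1 was above, as were 10.6% of genes, and MT-ND4L, MT-ND5 and MT-ND6 were below, as were 33.7%. Within replicate numbers, the counting interval of the ratio of LacZ PD to input lay below equality for MT-ND5 in both replicates and for MT-ND6 in replicate 2 (0.404, 0.176 to 0.924), but not for MT-ND6 in replicate 1 (0.351, 0.0871 to 1.41). MT-ND6 had 2 counts in LacZ PD 1, at a level within 1 CPM of input 2, and MT-ND4L had 0 and 1 counts in LacZ PD. Between the pull-downs, MT-ND1, MT-ND4L, MT-ND5 and MT-ND6 were above, as were 29.3%, and no member was below, as were 9.57%. The depth of LacZ PD does not show whether MT-ND4L was separated.

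The composition of the MT-ND counts restates the ratio of MT-ND1 as a share and adds the other members. MT-ND1 made up 3.53% and 2.75% of them in input, 50.3% and 23.3% in CyCoNP PD, compared with 50.4% and 62.8% in LacZ PD. MT-ND5 made up 3.26% and 76.9% in input, 40.7% and 60.7% in CyCoNP PD, compared with 2.68% and 6.75% in LacZ PD. MT-ND4 made up 76.9% of the MT-ND counts in input 1 and 15.7% in input 2. A single antiporter-like subunit thus held most of the counts in each input, MT-ND4 in the first and MT-ND5 in the second.

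**Figure D2:**
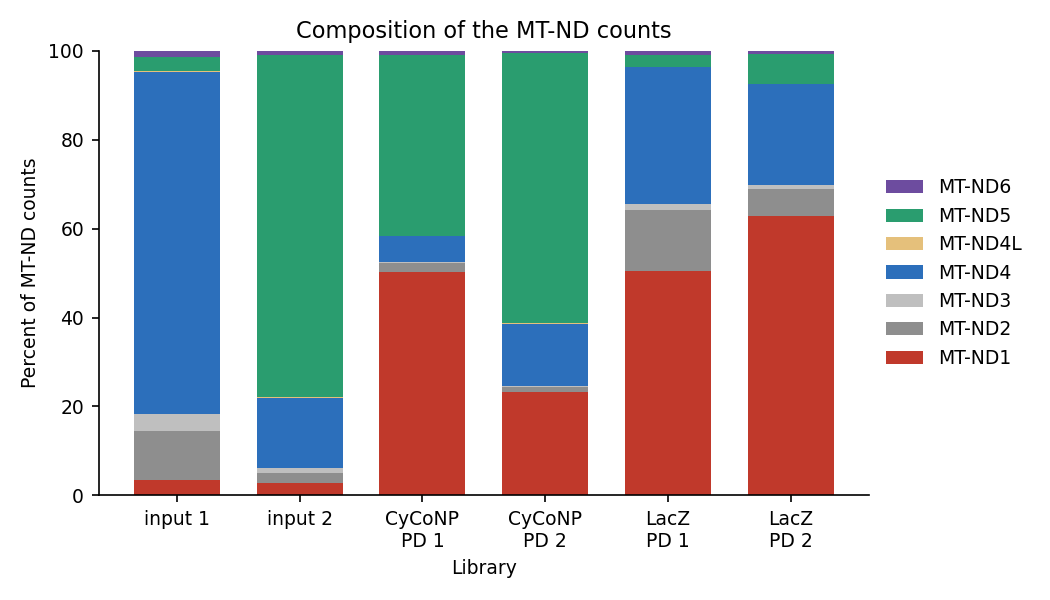
Share of each member in the MT-ND counts of each library, in percent, stacked to 100. MT-ND1 takes 3.53% and 2.75% in the inputs and 23.3% to 62.8% in the pull-downs, and MT-ND4 leads in input 1 whereas MT-ND5 leads in input 2.

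Per length, in CPM per kilobase of gene, the order of the members also differed between libraries. MT-ND4 was first in input 1 (12791) and MT-ND5 in input 2 (4855). MT-ND1 was first in CyCoNP PD 1 (33827), LacZ PD 1 (6264) and LacZ PD 2 (3957), and second behind MT-ND5 in CyCoNP PD 2 (7072 against 9698). In group means, input had MT-ND4 at 7048 ± 8121 and MT-ND5 at 2633 ± 3142 (SD, n = 2), which do not differ beyond their spread. In LacZ PD, MT-ND1 at 5110 ± 1631 stood above MT-ND4 at 1819 ± 1181 and MT-ND5 at 200.0 ± 34.7, whereas in CyCoNP PD, MT-ND1 at 20450 ± 18919 and MT-ND5 at 12067 ± 3350 overlapped.

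The share of each library taken by the 7 members lay above input in CyCoNP PD and below the same-numbered input in LacZ PD. It was 2.29% and 1.14% in input, 6.43% and 2.90% in CyCoNP PD, compared with 1.19% and 0.602% in LacZ PD. Both CyCoNP PD libraries were above both inputs, and LacZ PD overlapped with input. Within replicate numbers, CyCoNP PD had 2.8 and 2.53 times the share of its input, and LacZ PD had 0.518 and 0.527 times. CyCoNP PD stood 2.94 percentage points above input on average (exact permutation p = 0.333) and LacZ PD 0.82 points below (difference -0.82, exact permutation p = 0.667). Averaged over opposite differences, the 4 pull-downs had 2.78% ± 2.62 (SD) and the 2 inputs 1.72% ± 0.81, a difference of 1.06 percentage points (exact two-sided permutation test, p = 0.667). Without CyCoNP PD replicate 1 the difference was -0.16, so its direction rested on that library. Of all mitochondrial counts, the members took 31.7% and 24.5% in input, 61.0% and 28.8% in CyCoNP PD, compared with 26.9% and 21.8% in LacZ PD.

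Replicates of a group differed by more than counting error over all genes as well as over the members. The chi-square per degree of freedom between the replicates was 18.4 over all genes and 2580 over the 7 members in input. It was 14.3 and 764 in CyCoNP PD, compared with 4.11 and 4.83 in LacZ PD. This statistic grows with counts, and the members held 16464 and 9060 counts in input but 224 and 844 in LacZ PD. Its size therefore does not compare the spread of the members with that of all genes, or of 1 group with another. Among 941 genes with a mean of at least 100 counts, the median SD of TMM-scaled log2 CPM (prior count 2) between inputs was 0.48, and the median over the 7 members was 1.77. In CyCoNP PD these values were 0.29 and 1.07, and in LacZ PD 0.74 and 0.48. With scaling to the library total alone (computed after the data were seen) input had 0.43 and 1.90, CyCoNP PD had 0.27 and 1.02, whereas LacZ PD had 0.58 and 0.89. The order of members and all such genes in LacZ PD thus depends on the scaling. The medians of the members had no such count minimum. They include MT-ND4L, whose 43, 23, 48, 12, 0 and 1 counts in the 6 libraries fall short of it.

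The other mitochondrial RNAs gave a list against which to read the members. The 6 mRNAs of the cytochrome bc1 complex, cytochrome oxidase and ATP synthase had edgeR log2 fold changes from -2.17 (MT-CO1) to 2.57 (MT-CYB) in CyCoNP PD against input, with a median of -0.37 and 0 of 6 called. In LacZ PD against input they ranged from -3.50 (MT-CO1) to 1.32 (MT-CO3), with a median of -2.14 and 0 of 6 called. Between the pull-downs they ranged from -1.92 (MT-CO3) to 4.65 (MT-CO2), again with 0 of 6 called. With the replicate block, edgeR called 3 of 6 in CyCoNP PD against input (MT-CYB and MT-CO2 higher, MT-ATP8 lower; 2.26% of all genes), 1 in LacZ PD against input (MT-CO1 lower; 0.923%) and 2 between the pull-downs (MT-CYB and MT-CO2 higher in CyCoNP PD; 0.772%). DESeq2 called 2 in CyCoNP PD against input (MT-CYB and MT-CO2 higher; 0.573%), 3 in LacZ PD against input (MT-CO3 higher, MT-CO1 and MT-CO2 lower; 0.430%) and 3 between the pull-downs (MT-CYB and MT-CO2 higher, MT-CO3 lower in CyCoNP PD; 0.302%).

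MT-CO3, a core subunit of cytochrome oxidase, was like MT-ND1 in being higher in LacZ PD than in input, at 2016 and 2581 CPM in input and 11023 and 6509 CPM in LacZ PD, but it had 1737 and 1181 CPM in CyCoNP PD. MT-ND1 thus differed from MT-CO3 in CyCoNP PD. MT-CO2, another cytochrome oxidase subunit, resembled MT-ND5, at 432 and 927 CPM in input, 3168 and 2997 CPM in CyCoNP PD, and 212 and 157 CPM in LacZ PD. The 2 rRNAs, MT-RNR1 and MT-RNR2, had log2 fold changes of -1.17 and 0.34 in CyCoNP PD, compared with -2.07 and -1.75 in LacZ PD against input, and neither was called in these comparisons in edgeR, with or without the replicate block, or in DESeq2. Between the pull-downs, MT-RNR2 differed by 2.09 in edgeR and was not called, but DESeq2 called it higher in CyCoNP PD (1.97, adjusted p = 0.0257), and MT-RNR1 (0.89 in edgeR) was called by neither.

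The nuclear genes for the rest of complex I gave no call, as did nearly all genes. Of 37 core and accessory subunits, all tested, edgeR called 0 in each of the 3 comparisons, with or without the replicate block, and so did DESeq2. The shares called over all genes were 0.127%, 0% and 0% in edgeR, 2.26%, 0.923% and 0.772% with the block, and 0.573%, 0.430% and 0.302% in DESeq2. At an unadjusted p under 0.05, edgeR without the block found 0, 0 and 1, beside 5.40%, 7.02% and 5.20% of all genes. Their median log2 fold changes were -0.01 in CyCoNP PD against input, -0.08 in LacZ PD against input and 0.10 between the pull-downs, and single genes ranged from -1.11 to 1.68. The smallest p values belonged to NDUFA6, an accessory subunit, in CyCoNP PD against input (1.55 ± 0.75) and against LacZ PD (1.68 ± 0.76), and to NDUFA9, an accessory subunit near the ubiquinone site, in LacZ PD against input (1.36 ± 0.66). NDUFV1, which binds NADH, had the next smallest p between the pull-downs (1.09 ± 0.72).

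Nuclear pseudogenes of the members hold related sequence and can take or lend reads. How close each is to its member was not measured. Of 217 MT-ND pseudogenes in the table, 29 had a count and 10 had a total of at least 10. Most of these counts came from MTND1P8, with 866 counts in CyCoNP PD 1 and 0 to 4 elsewhere, and from MTND2P28, with 473 counts in input 1, 339 in CyCoNP PD 1 and 0 to 19 elsewhere. MTND1P23 had 81, 55, 68, 30, 2 and 3 counts in input 1, input 2, CyCoNP PD 1, CyCoNP PD 2, LacZ PD 1 and LacZ PD 2. The other 7 were MTND1P2 (67 counts in all), MTND4P12 (32), MTND4P22 (30), MTND1P16 (27), MTND1P9 (24), MTND4P34 (22) and MTND1P26 (11), and CyCoNP PD 1 held the most counts of each.

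Over all members, the pseudogenes took 3.31% and 0.875% of the MT-ND and pseudogene counts in input, 1.54% and 0.348% in CyCoNP PD, compared with 3.86% and 0.354% in LacZ PD, the larger value being replicate 1 in each group. For single members the share was higher: of the counts of MT-ND2 and its pseudogenes, the pseudogenes held 20.8% in input 1 and 15.2% in CyCoNP PD 1, and of those of MT-ND1 and its pseudogenes, 13.0% and 18.9% in input. With these counts added to their parents, the edgeR log2 fold change of MT-ND1 was 5.05 in CyCoNP PD and 2.39 in LacZ PD against input, and its log2 ratio to the other members differed between pull-downs and input by 4.52.

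The genes outside the members whose TMM-scaled log2 CPM (prior count 2) followed a member most closely over the 6 libraries were sought among 5410 genes with a mean of at least 20 CPM. For MT-ND1 they were MED8 (Pearson r = 0.973), ITM2B (0.973) and CCT5 (0.959). For MT-ND4 they were CHD4 (0.995), GTF2I (0.988) and VARS1 (0.971), and for MT-ND5 they were MT-CO2 (0.978), PTPRS (0.969) and PPP1R18 (0.967). These are descriptions over 6 points that share library and depth, and they depend on the scaling. Several of these genes had few counts in LacZ PD 1 and 2, so their levels there carry large counting error. MED8 had 1 and 5, GTF2I 1 and 3, VARS1 1 and 3, PTPRS 0 and 0, and PPP1R18 1 and 5. With scaling to the library total alone, r for the MT-ND1 genes was 0.863, 0.689 and 0.673, and that of PPP1R18 with MT-ND5 was -0.0975. CHD4 (0.976) and MT-CO2 (0.969) stayed first for MT-ND4 and MT-ND5 under that scaling. MT-CO2 was the only mitochondrial gene among the 9.

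Among the members themselves, MT-ND3 and MT-ND4 had the highest correlation of the same TMM-scaled levels over the 6 libraries (r = 0.874) and MT-ND2 and MT-ND3 followed (0.804 over the same libraries). MT-ND1 had at most 0.395, with MT-ND6, and 0.338 with MT-ND5. MT-ND5 was highest with MT-ND6 (0.694), its neighbour, and lowest with MT-ND2 (-0.184). With scaling to the library total alone, MT-ND1 had 0.374 with MT-ND6 and 0.246 with MT-ND5, and MT-ND3 and MT-ND4 had 0.865.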

How the data were processed

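The authors made the counts from Nanopore PCR-cDNA reads of mean quality at least 9 and at least 100 nucleotides, aligned to GRCh38 with Minimap2 2.24-r1122 and quantified per gene on Ensembl release 99. The deposited counts were used as such. The deposited CPM table is these counts scaled to each library total (largest difference 5.1e-11). Depth was 18870 to 1512148 counts per library. The study calls the pull-downs biological duplicates, and the labels number the replicates without saying how the cultures were kept apart.

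The 12565 genes whose counts summed to 10 or more were fitted with edgeR 4.0.16 (quasi-likelihood, TMM factors 0.832 to 1.70, group only, all 6 libraries; R 4.3.3). A call needed a Benjamini-Hochberg adjusted p under 0.05 over all genes and a log2 fold change beyond 1 in either direction. DESeq2 1.42.0 was an alternative. Deviations from group means correlated between same-numbered libraries at 0.257 to 0.449 across genes, so the replicate numbers were taken to pair the libraries. With 2 libraries a group the values of both numbers mirror each other, and no source ties a number to one extract. Blocked values are given where they change a call. The blocked fit has 2 residual degrees of freedom and takes its spread from all genes together, which makes its p-values small.

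Single values were compared by exact permutation over libraries (SciPy 1.17.1). Positions and sequences came from the GRCh38 mitochondrial sequence of 16569 bases, with GENCODE 44 gene models, and probes from the study's list. Named were the 7 members in every library, the extremes of the other mitochondrial RNAs, nuclear subunits called or, failing that, the 2 with the smallest p (1 of these genes is not reported here), MT-ND pseudogenes with at least 10 counts, and the 3 genes most correlated with MT-ND1, MT-ND4 and MT-ND5. MT-CO2 and MT-CO3 levels were added after their values were seen. Members, lists and tests were chosen with earlier results of these data known, and the muscle list was written after MYOG was seen. Alternatives covered scaling, filters, tool, block, pseudogenes and each library left out.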

Additional observations from a re-analysis of the deposited data

Results flagged for a closer look

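MT-ND5 lay on opposite sides of input in the pull-downs. Both CyCoNP PD libraries lay above both inputs, as did 15.9% of all genes tested. Both LacZ PD libraries lay below both inputs, as did 33.7%. The log2 difference between the pull-downs was 6.38 in edgeR (adjusted p = 0.112, with the replicate block adjusted p = 1.07e-08, DESeq2 adjusted p = 1.82e-06). The difference held in each replicate number on its own, at 7.36 in replicate 1 and 5.62 in replicate 2. The inputs differed 11.8-fold from each other, LacZ PD 1 held 6 counts of the gene, and the replicate 1 libraries carried skeletal muscle markers, whose part in the difference was not tested.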

How the results depend on the processing

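The fold changes of MT-ND1 kept their direction in all 3 comparisons under every alternative run. In CyCoNP PD against input, MT-ND1 passed in DESeq2 (5.12), with no filter (5.19), with the replicate block in edgeR (5.06) and in DESeq2 (4.96), and leaving out each library in turn gave 3.67 to 5.99. In LacZ PD against input it passed in DESeq2 (2.63) and with the replicate block in edgeR (2.83) and DESeq2 (2.91), with 1.96 to 3.28 on leaving out libraries. Between the pull-downs it passed in DESeq2 with the replicate block (2.06), was 1.03 in the replicate 2 libraries alone, and was 1.23 to 3.41 on leaving out libraries. The number of members called went from 0 to 1 (DESeq2, no filter) and 2 (replicate block in either tool) in CyCoNP PD against input. In LacZ PD against input it went from 0 to 2 (DESeq2, replicate block in either tool) and 1 (no filter). Between the pull-downs it went from 0 to 1 (DESeq2) and 2 (no filter, replicate block in edgeR, only the 2 groups compared). DESeq2 with the replicate block gave 3 there. Calls over all genes rose with them, from 15 higher and 1 lower, 0 and 0, and 0 and 0 in edgeR without the block. With no filter (22293 genes) they were 99 and 27, 7 and 29, and 59 and 3 in the same order. In DESeq2 with the replicate block (12565 genes) they were 87 and 35, 11 and 74, and 50 and 3. With only the 2 groups compared, 56 and 3 of 12545 genes were called between the pull-downs. Leaving out a library leaves a lone library in its group, so only effect sizes are given for those fits. MT-ND1 in CyCoNP PD against input was 5.96 without input replicate 1 and 5.99 without CyCoNP PD replicate 2. A lone library was assumed to vary like the other groups. The difference between pull-downs and input in the log2 ratio of MT-ND1 to the other members was 4.40 to 5.22 on leaving out libraries.

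Reversals came mostly with input replicate 1, CyCoNP PD replicate 1 or the replicate 2 libraries alone, and their cause was not tested. In CyCoNP PD against input, MT-ND2 was 0.21 and MT-ND4 1.1 in the replicate 2 libraries alone, and leaving out libraries gave -2.01 to 1.59 for MT-ND2, -2.70 to 0.027 for MT-ND3, -2.03 to 1.07 for MT-ND4 and -0.14 to 1.92 for MT-ND6. In LacZ PD against input, MT-ND2 was 0.22 in replicate 2 alone and -2.21 to 1.06 on leaving out libraries. Between the pull-downs MT-ND2 was -0.0047 in replicate 2 alone, -0.27 with library size alone and -0.65 to 1.38 on leaving out libraries. MT-ND5 ranged from 1.29 to 5.04 in CyCoNP PD against input, from -5.14 to -1.46 in LacZ PD against input and from 6.0 to 7.35 between the pull-downs on leaving out libraries. The difference in the share of counts was -0.16 to 1.78 points on leaving out libraries, and as a share of mitochondrial counts it was 6.53 points, with -2.25 to 10.8 on leaving out libraries (-2.25 without CyCoNP PD replicate 1, an alternative added after the data were seen). Depth limits MT-ND4L, MT-ND3 and MT-ND6 in LacZ PD.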
